A study of Rattus norvegicus with 8 samples.

Results

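Autophagy and lysosome genes were followed in rat neurons exposed to an antioxidant enzyme and to amyloid oligomers. The set held 37 genes of the 22459 genes and unnamed accessions that could be tested. They were matched by accession to 45 of the 30367 probes on the array, and all 37 passed the filter on dim probes. By role they comprised 14 autophagy factors, 16 lysosomal hydrolases, 1 hydrolase activator, 5 lysosomal membrane proteins and 1 transcription factor.

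In autophagy, a cell wraps part of its cytoplasm in membrane and delivers it to the lysosome for breakdown. The membrane is started by a kinase and a lipid kinase complex, and is then decorated with small proteins of the ATG8 family that are joined to its lipids by a conjugation machinery related to that of ubiquitin. Lysosomal hydrolases, active at acid pH, degrade what arrives, and many of their genes share a transcription factor, TFEB, which recognises the letters CACGTG in gene promoters. Neurons do not divide and depend on this route to clear aggregated proteins, and enlarged autophagic and lysosomal compartments are well known in Alzheimer's disease.

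The cells were primary cortical and hippocampal neurons of Sprague Dawley rat embryos at day 18, kept for 7 days in culture before treatment. CAT-SKL is a catalase carrying a peroxisome-targeting signal, and ADDL preparations are soluble oligomers of amyloid-beta. Cells received 1 µM CAT-SKL alone or 1 µM ADDL alone for 24 hours, CAT-SKL and then ADDL (CAT-SKL+ADDL), or ADDL and then CAT-SKL (ADDL+CAT-SKL), in the last pair of groups for 24 hours with each agent, and each treatment was described as 2 biological replicates. Treated RNA was labelled with Cy5 and RNA of vehicle-treated neurons with Cy3 on each of 8 arrays of 1 slide, so values are given as log2 of treated over vehicle. Comparisons asked which genes each agent altered and whether CAT-SKL, before or after ADDL, gave a different profile from ADDL alone.

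The median Cy5 signal of an array was between 87.5 and 127.5 and the median Cy3 signal between 104 and 111.5, over median backgrounds of 23.5 to 29. Between 34 and 37 members were well above background in either channel of an array, and no spot was saturated. Ctsc, Ctss and Ctsz were the 3 members not well above background on every array. The CAT-SKL+ADDL arrays differed by no more than spot noise, since the differences of first spots and of second spots between them correlated at r = 0.0072 over 15739 probes against 0.27 to 0.68 in the other 27 pairs of arrays. They were therefore counted as 1 sample, and their SD shows technical spread only. All arrays carried the dyes the same way round. A probe's dye bias therefore cannot be told apart from a treatment effect that is shared by all arrays. The origin of the vehicle RNA on each array, pooled or matched to the treated culture, is unknown. If it was pooled, the test leaves out the vehicle's own spread. In bulk RNA, fewer cells of a type and less RNA per cell cannot be told apart.

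Upstream sequences are shown for the 3 lowest and the 3 highest members after CAT-SKL among those on the same side of 0 on both arrays, because the letters bound by TFEB are present in some of them and not in others. Each is the 250 bases before the first transcript start listed by RefSeq (rat assembly GRCr8), 5′ to 3′ on the gene's strand, with CACGTG in capitals. Ctsd lay at chr1:206968822-206969071 (minus strand), Mcoln1 at chr12:6358008-6358257 (plus), Gabarap at chr10:55213215-55213464 (plus), Ctsh at chr8:99488506-99488755 (plus), Lamp2 at chrX:122087674-122087923 (minus) and Lamp1 at chr16:83075064-83075313 (minus).
Ctsd: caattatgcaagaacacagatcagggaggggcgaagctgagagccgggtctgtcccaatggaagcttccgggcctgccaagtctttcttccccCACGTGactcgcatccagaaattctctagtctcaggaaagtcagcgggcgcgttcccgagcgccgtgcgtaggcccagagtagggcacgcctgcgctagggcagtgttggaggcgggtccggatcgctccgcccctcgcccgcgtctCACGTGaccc
Mcoln1: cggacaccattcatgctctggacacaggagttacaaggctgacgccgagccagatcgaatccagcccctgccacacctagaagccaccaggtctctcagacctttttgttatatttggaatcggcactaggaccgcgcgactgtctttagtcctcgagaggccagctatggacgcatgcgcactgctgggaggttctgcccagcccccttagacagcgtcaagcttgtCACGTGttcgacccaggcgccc
Gabarap: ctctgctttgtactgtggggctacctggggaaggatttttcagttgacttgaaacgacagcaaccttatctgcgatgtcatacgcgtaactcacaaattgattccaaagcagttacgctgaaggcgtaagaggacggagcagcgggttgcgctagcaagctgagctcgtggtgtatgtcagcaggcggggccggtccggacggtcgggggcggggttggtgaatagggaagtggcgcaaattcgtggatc
Ctsh: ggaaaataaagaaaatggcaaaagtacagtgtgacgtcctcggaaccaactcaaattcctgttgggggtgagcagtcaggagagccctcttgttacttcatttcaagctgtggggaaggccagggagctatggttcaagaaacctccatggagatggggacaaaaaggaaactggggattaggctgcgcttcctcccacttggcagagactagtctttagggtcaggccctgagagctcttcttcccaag
Lamp2: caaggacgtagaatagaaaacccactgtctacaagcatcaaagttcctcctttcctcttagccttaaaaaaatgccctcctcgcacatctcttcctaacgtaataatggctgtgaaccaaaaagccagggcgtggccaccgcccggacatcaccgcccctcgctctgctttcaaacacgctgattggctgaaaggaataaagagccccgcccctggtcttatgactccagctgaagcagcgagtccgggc
Lamp1: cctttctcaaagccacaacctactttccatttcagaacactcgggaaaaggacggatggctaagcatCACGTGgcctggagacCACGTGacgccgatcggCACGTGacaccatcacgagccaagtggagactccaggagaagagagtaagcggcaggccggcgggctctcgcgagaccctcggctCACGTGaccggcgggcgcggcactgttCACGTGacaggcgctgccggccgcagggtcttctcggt

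Lamp1 held CACGTG 5 times in this window, Ctsd 2 times and Mcoln1 1 time, and the letters were not in the windows of Gabarap, Ctsh and Lamp2. Windows were matched for 32 of the 37 members, and 8 of these (25%) held CACGTG, against 1591 of 27457 promoters of the same length (5.79%). The other members with a match were Atg3, Atg5, Gaa, Glb1 and Cd63. By role, the letters were in 2 of 12 autophagy factors, 3 of 14 hydrolases and 3 of 5 lysosomal membrane proteins. The longer TCACGTGA, which contains CACGTG, was in 3 of 32 member windows (9.38%) and in 0.743% of all windows. With a G before it and a C after it, the form known as the CLEAR element, it was in 0 of 32 member windows and in 66 of all windows (0.24%). Each of the 3 motifs reads the same on either strand. A match describes the letters and not a bound site, and members with CACGTG stood among both the lowest (Ctsd, Mcoln1) and the highest (Lamp1) after CAT-SKL.

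Across all 37 genes the shifts were small. After CAT-SKL, 22 of 37 members lay above 0 with a median of 0.04 on the log2 scale, and after ADDL 19 of 37 with a median of 0.02. After CAT-SKL+ADDL, 21 lay above 0 (median 0.01), and after ADDL+CAT-SKL, 24 (median 0.03). Over all genes tested, 48.6% to 50% lay above 0 and the medians were between -0.004 and -0.0002. The median size of a member's change, whatever its direction, was 0.076 after CAT-SKL, 0.110 after ADDL, 0.102 after CAT-SKL+ADDL and 0.062 after ADDL+CAT-SKL. The same quantity over all genes was 0.073, 0.070, 0.076 and 0.068.

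With limma and Benjamini-Hochberg adjustment over all genes at 0.05, Ctsd was the 1 member that passed in any comparison. It fell after CAT-SKL, where 1 of 37 members passed (2.70%) against 588 of all genes (2.62%), 188 higher (0.837%) and 400 lower (1.78%). The members' share was thus at the background. After ADDL and after CAT-SKL+ADDL no gene of any kind passed (0% of all genes), and after ADDL+CAT-SKL no member passed against 102 of all genes (0.454%). At an unadjusted p under 0.05, 9 members (24.3%) stood out after CAT-SKL against 21.2% of all genes, and 9 members (24.3%) after ADDL against 19%. The corresponding counts were 5 members (13.5%) after CAT-SKL+ADDL against 11.3%, and 8 members (21.6%) after ADDL+CAT-SKL against 17.6%. These p-values rest on a spread per gene that was pooled over the groups with 2 samples, with 3 residual degrees of freedom before moderation. CAT-SKL+ADDL entered as 1 sample and adds nothing to that spread, so its p-values and SE come from the spread of the other groups.

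Both arrays of a treatment lay above 0 for 16 members after CAT-SKL (32.4% of all genes did so), 14 after ADDL (32.1%), 17 after CAT-SKL+ADDL (36.2%) and 16 after ADDL+CAT-SKL (30.1%). Both lay below 0 for 11 members after CAT-SKL (34% of all genes), 12 after ADDL (31.6%), 14 after CAT-SKL+ADDL (38.8%) and 9 after ADDL+CAT-SKL (31.6%). For the other members the arrays of a treatment lay on opposite sides of 0.

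**Figure D1:**
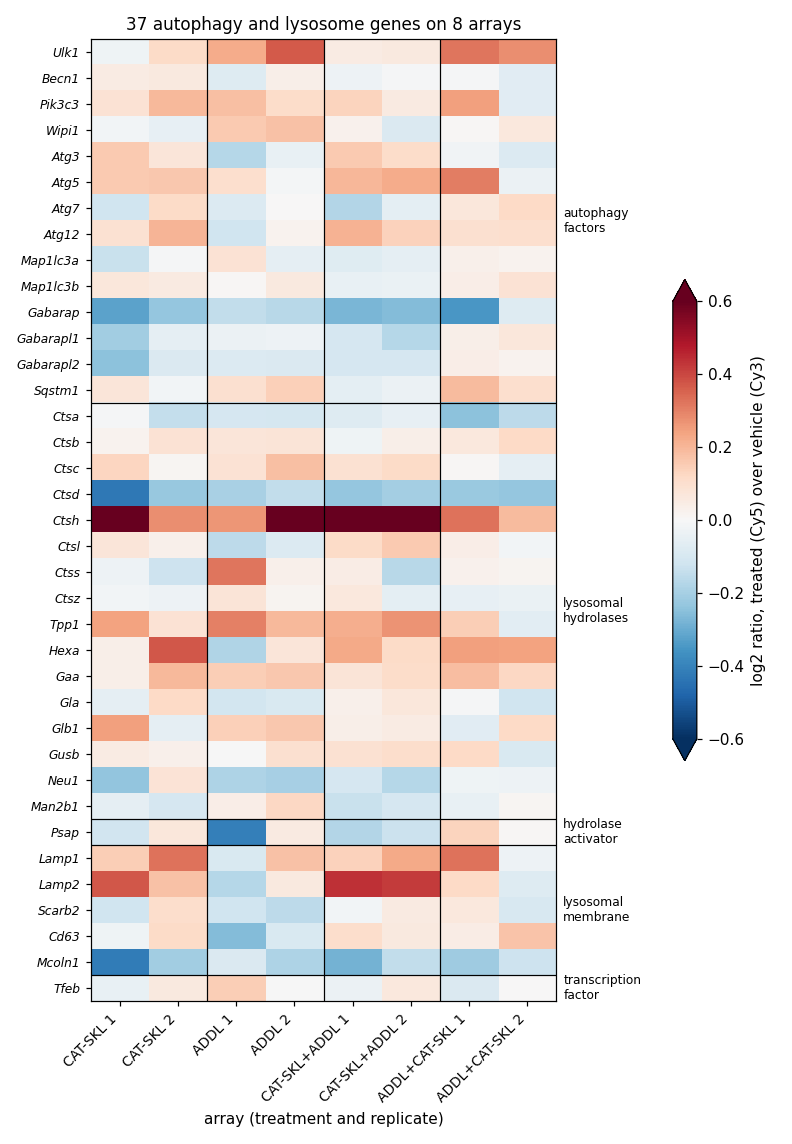
Log2 ratio of treated (Cy5) over vehicle (Cy3) for each of the 37 members (rows, grouped by role) on each of the 8 arrays (columns) after loess normalisation, with red for higher and blue for lower than vehicle and colours capped at -0.6 and 0.6. Ctsd, Mcoln1, Gabarap and Ctsa are blue on all 8 arrays, Ctsh and Gaa are red on all 8, and most other rows change colour between treatments.

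Some members kept 1 side of 0 on all arrays after loess normalisation. Ctsh and Gaa lay above 0 on all 8 arrays, which is 5.41% of members against 7.47% of all genes. Gabarap, Ctsa, Ctsd and Mcoln1 lay below 0 on all 8, which is 10.8% of members against 7.99% of all genes. These counts include the shared dye orientation and the shared vehicle label described above. The sides also depended on the normalisation: with each array centred on its median instead, Ctsa turned to 0.09 after CAT-SKL and 0.16 after CAT-SKL+ADDL, Ctsd turned to 0.04 after CAT-SKL+ADDL, and Gabarap stood at -0.01 there.

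Among the lysosomal proteases, the cathepsins and tripeptidyl peptidase, Ctsd and Ctsh had opposite signs. Ctsd encodes cathepsin D, the main aspartic protease of the lysosome. Its log2 ratio was -0.43 and -0.23 on the CAT-SKL arrays, -0.19 and -0.15 on the ADDL arrays, -0.23 and -0.20 on the CAT-SKL+ADDL arrays, and -0.22 and -0.23 on the ADDL+CAT-SKL arrays. Every array was below 0. The treated signals lay between 12.90 and 13.15 on the log2 scale after normalisation between channels. They lay below all 8 vehicle signals of this probe, between 13.19 and 13.36. Treated RNA was always in Cy5, so dye bias of this probe cannot be told apart from an effect shared by all arrays. The share of all genes whose channels separated in this way was not computed. The fitted change after CAT-SKL was -0.33 ± 0.06 (SE, n = 2), a ratio of 0.796, with adjusted p = 0.0430. The other treatments gave -0.17 (adjusted p = 0.195) after ADDL, -0.22 (0.408) after CAT-SKL+ADDL and -0.23 (0.125) after ADDL+CAT-SKL. The call rested on the library CAT-SKL 1: without it the change was -0.23 with adjusted p = 0.486, and without CAT-SKL 2 it was -0.43 with adjusted p = 0.0475. It was also lost when an array of ADDL (adjusted p = 0.0677) or of ADDL+CAT-SKL (0.0728) was left out, and under centring of each array on its median instead of loess (-0.13, adjusted p = 0.458). With median centring the CAT-SKL+ADDL value of Ctsd turned to 0.04.

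Ctsh encodes cathepsin H, a cysteine aminopeptidase. It stood at 1.00 and 0.28 on the CAT-SKL arrays, 0.26 and 0.64 on the ADDL arrays, 0.65 and 0.68 on the CAT-SKL+ADDL arrays, and 0.33 and 0.19 on the ADDL+CAT-SKL arrays. It had the highest mean of the 37 members in every treatment other than ADDL+CAT-SKL, and its CAT-SKL arrays lay far apart. The fitted values were 0.64 ± 0.15 (SE, n = 2) after CAT-SKL, 0.45 ± 0.15 after ADDL, 0.66 ± 0.22 (n = 1) after CAT-SKL+ADDL and 0.26 ± 0.15 after ADDL+CAT-SKL. None passed the threshold, with adjusted p = 0.0676, 0.174, 0.297 and 0.442. The probe was dim, with vehicle signals between 6.29 and 6.43 on the log2 scale, but it was well above background on every array in both channels. Without CAT-SKL 2 the CAT-SKL value was 1.00 with adjusted p = 0.0301, and without CAT-SKL 1 it was 0.28 with adjusted p = 0.60. Ctsh passed after CAT-SKL with median centring (0.61, adjusted p = 0.00334), and in the deposited log ratios it was at 1.58 with adjusted p = 0.182.

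Markers of glial cells varied array by array beside Ctsh. The median of 11 astrocyte markers was 0.82 and 0.27 on the CAT-SKL arrays, 0.46 and 0.81 on the ADDL arrays, 0.58 and 0.52 on the CAT-SKL+ADDL arrays, and 0.31 and -0.02 on the ADDL+CAT-SKL arrays. By the mean of the arrays, 10 of these 11 markers were above 0 after CAT-SKL, 10 after ADDL, 11 after CAT-SKL+ADDL and 10 after ADDL+CAT-SKL. None passed the test. On single arrays the counts were 11 and 8 for CAT-SKL, 10 and 11 for ADDL, 11 and 11 for CAT-SKL+ADDL, and 11 and 3 for ADDL+CAT-SKL. The median of 8 oligodendrocyte lineage markers was between 0.33 and 0.76 on the arrays of the first 3 treatments, and 0.12 and -0.005 on the ADDL+CAT-SKL arrays. Of these 8 markers, 7, 7, 7 and 4 lay above 0 after CAT-SKL, ADDL, CAT-SKL+ADDL and ADDL+CAT-SKL. The lowest value in this list was -0.78 on CAT-SKL 2, and -1.21 and -1.02 on the ADDL+CAT-SKL arrays. Pdgfra, Olig2 and Sox10 passed after CAT-SKL and were higher, as was the microglial marker Fcer1g. Microglial markers (13 of 17 measured) had array medians between -0.11 and 0.16, markers of endothelial cells and fibroblasts (9) between -0.06 and 0.02, and neuronal markers (15 of 16 measured) between -0.03 and 0.08. The microglial markers Itgam, Ptprc and Gpr34 did not pass the filter on dim probes. The part of glial RNA in the Ctsh values was not tested.

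**Figure D2:**
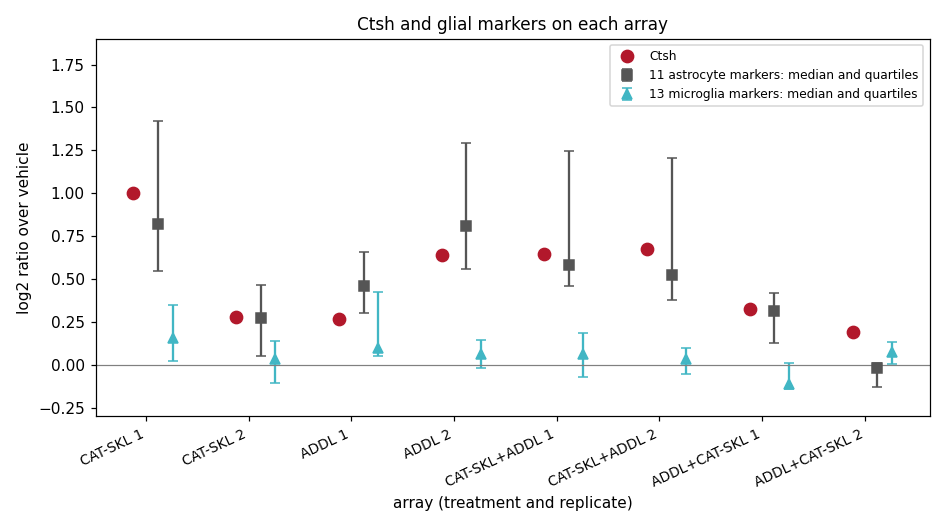
Log2 ratio over vehicle of Ctsh (red circles) on each of the 8 arrays, beside the median and quartiles of 11 astrocyte markers (grey squares) and 13 microglia markers (blue triangles). Ctsh and the astrocyte median are both high on CAT-SKL 1, ADDL 2 and the CAT-SKL+ADDL arrays and lower on CAT-SKL 2 and ADDL+CAT-SKL. On ADDL 1, Ctsh is at 0.26 and the astrocyte median at 0.46. The microglia medians stay between -0.11 and 0.16, and oligodendrocyte lineage markers are not drawn.

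The other proteases stayed closer to vehicle. Tpp1, the tripeptidyl peptidase whose loss causes a childhood neuronal ceroid lipofuscinosis, was at 0.24 and 0.09 after CAT-SKL, 0.30 and 0.19 after ADDL, 0.22 and 0.27 after CAT-SKL+ADDL, and 0.15 and -0.06 after ADDL+CAT-SKL. Its lowest adjusted p was 0.126, after ADDL, at 0.25 ± 0.07 (SE). Ctsa, the carboxypeptidase that protects beta-galactosidase and sialidase in the lysosome, lay between -0.25 and -0.01 on all 8 arrays. Its largest shift, after ADDL+CAT-SKL, was -0.20 ± 0.06 (SE) with adjusted p = 0.134. Ctsb and Ctsl, the most studied cysteine cathepsins, lay between -0.02 and 0.12 and between -0.16 and 0.16. Ctsc, Ctss and Ctsz were measured near background. Ctss, a cathepsin typical of microglia, was not well above background in either channel of the ADDL+CAT-SKL arrays, nor was Ctsz, so no single ratio is given for them there. Counts and medians over all 37 members and all 16 hydrolases include their fitted values. Without them, 23 of 35 members (median 0.03) and 8 of 14 hydrolases (median 0.01) lay above 0 after ADDL+CAT-SKL. In the treated channel Ctss was also not well above background on either CAT-SKL+ADDL array, and in the vehicle channel of the ADDL arrays neither Ctsc nor Ctsz was.

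The glycosidases, which remove sugars from glycoproteins, glycolipids and glycogen, included no member that passed. Hexa, a subunit of the hexosaminidase that degrades GM2 ganglioside, was at 0.04 and 0.37 after CAT-SKL, -0.18 and 0.07 after ADDL, 0.23 and 0.12 after CAT-SKL+ADDL, and 0.25 and 0.24 after ADDL+CAT-SKL. The ADDL+CAT-SKL arrays nearly coincided, and the fitted value there was 0.24 ± 0.09 (SE) with adjusted p = 0.213. Gaa, the glycogen-degrading acid alpha-glucosidase, was above 0 throughout, between 0.03 and 0.19. Neu1, the lysosomal sialidase, was at -0.19 and -0.20 on the ADDL arrays (fit -0.19 ± 0.08, adjusted p = 0.219) and at -0.23 and 0.08 on the CAT-SKL arrays. Gla, Glb1, Gusb and Man2b1 lay between -0.13 and 0.25 on all arrays. Psap, the precursor of the saposins that activate several of these enzymes, ranged from -0.41 to 0.14, and its ADDL arrays were the farthest apart of any member's, at -0.41 and 0.05.

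Among the lysosomal membrane proteins, Mcoln1 and Lamp2 showed the clearest values, with opposite signs. Mcoln1 encodes TRPML1, the calcium-releasing channel of the lysosome. It was at -0.42 and -0.21 after CAT-SKL, -0.09 and -0.19 after ADDL, -0.28 and -0.15 after CAT-SKL+ADDL, and -0.21 and -0.13 after ADDL+CAT-SKL. All arrays were below 0, and the CAT-SKL change of -0.31 ± 0.07 (SE, n = 2) fell just short of the threshold, with adjusted p = 0.0515. It passed with the CAT-SKL+ADDL arrays as separate samples (0.0226) and with probes required to be above background in both channels on every array (0.0434) or in most of their spots (0.0460). Without CAT-SKL 1 the value was -0.21 with adjusted p = 0.536. With median centring it was -0.19 (adjusted p = 0.244) after CAT-SKL and -0.04 after CAT-SKL+ADDL.

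Lamp2, a major glycoprotein of the lysosomal membrane and the receptor of chaperone-mediated autophagy, was at 0.37 and 0.17 after CAT-SKL and at 0.44 and 0.42 after CAT-SKL+ADDL. It was at -0.17 and 0.06 after ADDL and at 0.12 and -0.08 after ADDL+CAT-SKL. The arrays of the groups that began with CAT-SKL therefore all lay above those of the groups that began with ADDL. How many of all genes showed such a separation was not computed. The fitted values were 0.27 ± 0.08 (SE, adjusted p = 0.107) after CAT-SKL and 0.43 ± 0.11 (SE, n = 1, adjusted p = 0.228) after CAT-SKL+ADDL, and neither passed. Lamp1, its partner glycoprotein, was at 0.15 and 0.33 after CAT-SKL, -0.09 and 0.18 after ADDL, 0.14 and 0.23 after CAT-SKL+ADDL, and 0.33 and -0.03 after ADDL+CAT-SKL, with overlap between all groups. With median centring, Lamp1 and Lamp2 passed after CAT-SKL, at 0.38 (adjusted p = 0.0413) and 0.34 (0.0372). Cd63, a tetraspanin of late endosomes, was at -0.26 and -0.09 after ADDL and at 0.04 and 0.17 after ADDL+CAT-SKL, and Scarb2, which carries glucocerebrosidase to the lysosome, stayed between -0.16 and 0.11.

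**Figure D3:**
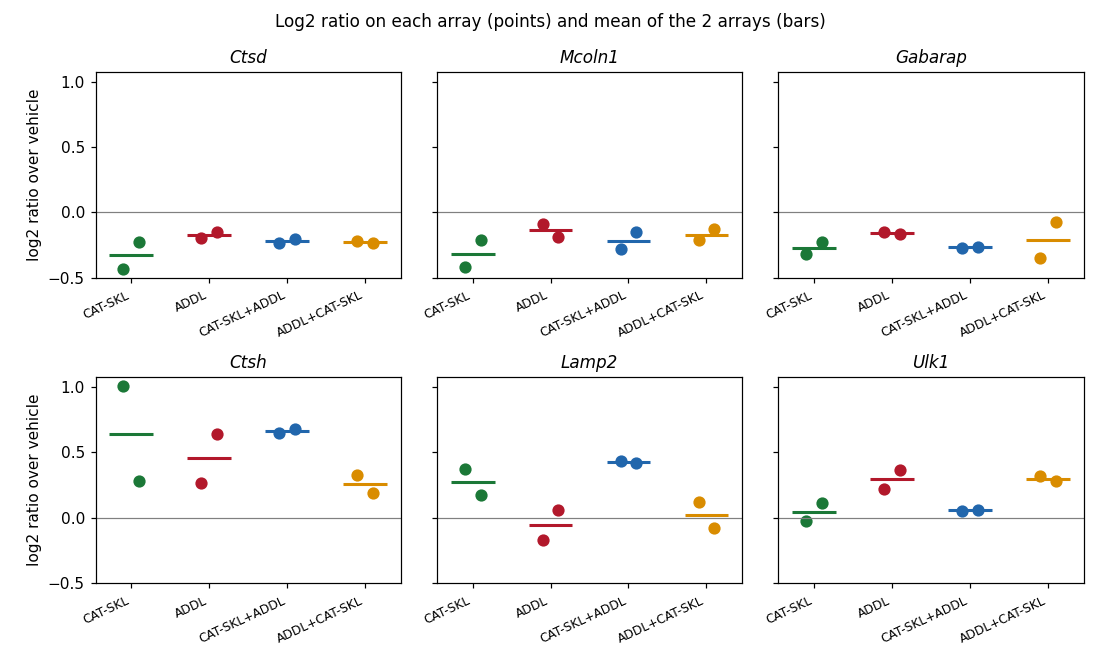
Log2 ratio over vehicle of Ctsd, Mcoln1, Gabarap, Ctsh, Lamp2 and Ulk1 in each treatment after loess normalisation, with a point for each array and a bar for the mean of the 2 arrays. Ctsd, Mcoln1 and Gabarap lie below 0 on all 8 arrays, Ctsh lies above 0 on all 8, Lamp2 is highest at 0.43 after CAT-SKL+ADDL and Ulk1 is near 0.3 in the treatments that began with ADDL.

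Among the factors that start autophagy, Ulk1 showed the largest values. Ulk1 encodes the kinase that starts the process when nutrients are low. It was at -0.03 and 0.11 after CAT-SKL, 0.22 and 0.37 after ADDL, 0.05 and 0.06 after CAT-SKL+ADDL, and 0.32 and 0.28 after ADDL+CAT-SKL. After loess, the groups that began with ADDL lay above the groups that began with CAT-SKL, with no overlap. With median centring the means came closer, at 0.18 after CAT-SKL and 0.24 after CAT-SKL+ADDL against 0.26 after ADDL and 0.37 after ADDL+CAT-SKL. The share of all genes with such a separation was not computed, and the CAT-SKL+ADDL arrays count as 1 sample. The fitted values were 0.29 ± 0.06 (SE, n = 2, adjusted p = 0.0769) after ADDL and 0.30 ± 0.06 (SE, n = 2, adjusted p = 0.0791) after ADDL+CAT-SKL. Both passed when the CAT-SKL+ADDL arrays were entered as separate samples (0.0279 and 0.0283). After ADDL, Ulk1 was at 0.37 without ADDL 1 (adjusted p = 0.395) and at 0.26 with median centring (0.205), and after ADDL+CAT-SKL at 0.37 with median centring (0.0518). Becn1 and Pik3c3, of the lipid kinase complex, and Wipi1, which reads its product, lay between -0.09 and 0.25. Wipi1 was at 0.16 and 0.17 after ADDL and between -0.09 and 0.06 on the other arrays, and the ADDL value had adjusted p = 0.143.

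The conjugation machinery moved little. Atg7, the activating enzyme, and Atg3, the transfer enzyme for ATG8 proteins, ranged from -0.18 to 0.12 and from -0.17 to 0.16. Atg5 and Atg12, which form the conjugate that directs ATG8 proteins to the membrane, ranged from -0.04 to 0.31 and from -0.12 to 0.21. Atg12 was at 0.15 ± 0.06 (SE, adjusted p = 0.201) after CAT-SKL and at 0.17 after CAT-SKL+ADDL. Atg5 was at 0.16 and 0.21 in the same treatments. The 2 probes of Atg5 differed in sign after ADDL (0.05 and -0.05) and after CAT-SKL+ADDL (0.21 and -0.008). Sqstm1, the p62 receptor that carries ubiquitinated cargo into autophagosomes, was at 0.07 and -0.02 after CAT-SKL, 0.10 and 0.14 after ADDL, -0.06 and -0.03 after CAT-SKL+ADDL, and 0.19 and 0.10 after ADDL+CAT-SKL. Its highest fitted value was 0.15 ± 0.06 (SE, adjusted p = 0.225) after ADDL+CAT-SKL. A probe for its other listed accession gave -0.10 there, so the direction of Sqstm1 differed between its 2 probes.

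Within the ATG8 family, whose proteins coat the autophagosome membrane, Gabarap stood lowest. It was at -0.32 and -0.23 after CAT-SKL, -0.15 and -0.17 after ADDL, -0.28 and -0.26 after CAT-SKL+ADDL, and -0.35 and -0.08 after ADDL+CAT-SKL, all 8 below 0. Its CAT-SKL change was -0.27 ± 0.07 (SE, n = 2) with adjusted p = 0.0794. With median centring Gabarap was at -0.08 after CAT-SKL, -0.16 after ADDL, -0.01 after CAT-SKL+ADDL and -0.10 after ADDL+CAT-SKL. Of the 5 family members, 1 lay above 0 after CAT-SKL, 2 after ADDL, 0 after CAT-SKL+ADDL and 4 after ADDL+CAT-SKL (medians -0.13, -0.03, -0.10 and 0.03), but with median centring the counts were 4, 3, 4 and 4 and in the deposited log ratios 1, 1, 0 and 2. With median centring, Map1lc3a, Gabarapl1 and Gabarapl2 turned to 0.18, 0.15 and 0.03 after CAT-SKL and to 0.25, 0.20 and 0.15 after CAT-SKL+ADDL, and Map1lc3b to 0.19 in the latter. Map1lc3b, the LC3 form most used as an autophagosome marker, lay between -0.04 and 0.09 on all 8 arrays.

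Gabarapl1 was at -0.21 and -0.05 after CAT-SKL, -0.03 and -0.03 after ADDL, -0.10 and -0.17 after CAT-SKL+ADDL, and 0.03 and 0.07 after ADDL+CAT-SKL. Gabarapl2 was at -0.25 and -0.09, -0.08 and -0.09, -0.10 and -0.10, and 0.04 and 0.02 in the same order. For both genes the values above 0 were those of ADDL+CAT-SKL. In that treatment the probes of each gene did not share a sign, from -0.07 to 0.05 for Gabarapl1 and from -0.19 to 0.14 for Gabarapl2. Of the 7 members with several probes, the probes disagreed in sign for 1 gene after CAT-SKL and for 3 genes after each other treatment.

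Tfeb itself, which acts mainly through its movement to the nucleus, was close to vehicle. It was at -0.05 and 0.06 after CAT-SKL, 0.15 and -0.003 after ADDL, -0.04 and 0.06 after CAT-SKL+ADDL, and -0.09 and 0.001 after ADDL+CAT-SKL. Both arrays shared a side of 0 in none of the 4 treatments, and the 95% interval after CAT-SKL ran from -0.14 to 0.15.

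Hydrolases and autophagy factors were set against each other in each array, as the median of 16 hydrolases minus the median of 14 autophagy factors. The difference was 0.012 and -0.026 on the CAT-SKL arrays, 0.069 and 0.064 on the ADDL arrays, 0.090 and 0.095 on the CAT-SKL+ADDL arrays, and -0.024 and -0.066 on the ADDL+CAT-SKL arrays. Hydrolases were thus the higher group on both arrays of ADDL and of CAT-SKL+ADDL, the latter turning with median centring, and the lower group on both ADDL+CAT-SKL arrays. The group means were -0.007 ± 0.027 (SD, n = 2) for CAT-SKL, 0.066 ± 0.003 for ADDL, 0.093 ± 0.003 (SD of 2 arrays counted as 1 sample) for CAT-SKL+ADDL and -0.045 ± 0.030 for ADDL+CAT-SKL. All of these are small beside the range of single genes within each list. Median centring gave -0.093 there, -0.091 in CAT-SKL, 0.063 in ADDL and -0.119 in ADDL+CAT-SKL. No test was made, because genes of a list are not replicates of a treatment.

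**Figure D4:**
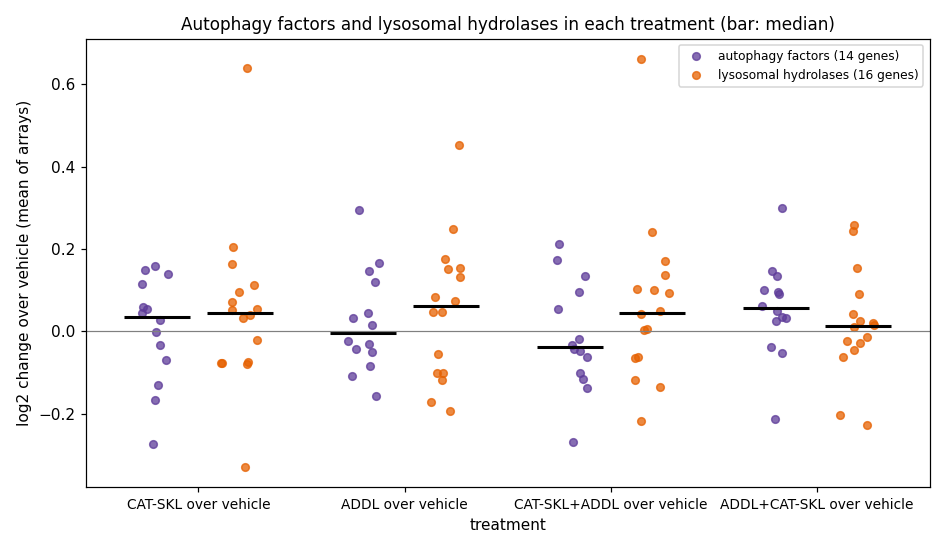
Log2 change over vehicle of each of the 14 autophagy factors (purple) and 16 lysosomal hydrolases (orange) in the 4 treatments, as the mean of the arrays, with a black bar at the median of each list. The lists overlap in every treatment, the single high orange points are Ctsh, and the medians lie between -0.04 and 0.06.

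By gene means, 10, 10, 11 and 9 of the 16 hydrolases lay above 0 after CAT-SKL, ADDL, CAT-SKL+ADDL and ADDL+CAT-SKL. Their medians were 0.05, 0.06, 0.05 and 0.01. Of the 14 autophagy factors, 8, 7, 5 and 11 lay above 0, with medians of 0.04, -0.003, -0.04 and 0.06. Of the 5 membrane proteins, 3, 1, 4 and 3 lay above 0, with medians of 0.04, -0.14, 0.08 and 0.02. With median centring, 12, 8, 11 and 13 of the autophagy factors lay above 0, with medians of 0.18, 0.02, 0.19 and 0.14, so that their median after CAT-SKL+ADDL turned from below to above 0. The hydrolases then stood at 12, 10, 12 and 8 above 0 (medians 0.07, 0.06, 0.11 and 0.02), and the membrane proteins at 4, 1, 4 and 3 (medians 0.20, -0.15, 0.29 and 0.04).

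The direction of many members depended on how strongly each array's ratios were corrected for signal strength. With median centring instead of loess, which removes a trend of the ratio with brightness, 11 members changed sign after CAT-SKL, 1 after ADDL, 13 after CAT-SKL+ADDL and 5 after ADDL+CAT-SKL. The 19 brightest members, with a mean log2 signal of at least 10, moved by a median of 0.15 after CAT-SKL and 0.21 after CAT-SKL+ADDL, while the dimmer members moved by 0.02 and 0.03. The median over the 37 members became 0.17 after CAT-SKL and 0.16 after CAT-SKL+ADDL, with 29 and 28 members above 0. Ctsh, a dim member, kept its value, at 0.61 after CAT-SKL.

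**Figure D5:**
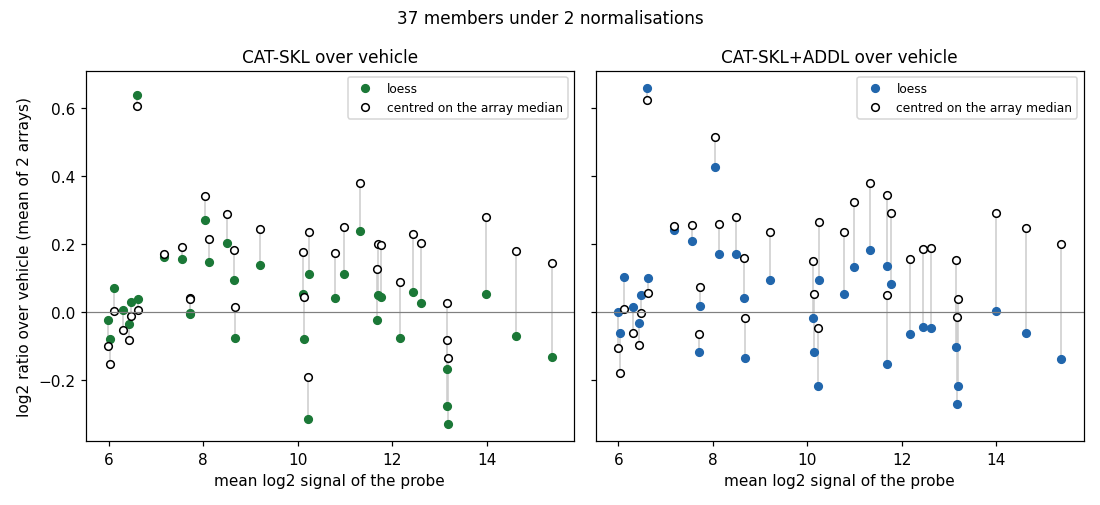
Log2 ratio over vehicle of the 37 members after CAT-SKL (left) and CAT-SKL+ADDL (right) against the mean log2 signal of the probe, with filled points for loess and open points for arrays centred on their median. The grey lines joining the points are short for dim members and long for members above a log2 signal of 10, where centring moved the values up by a median of 0.15 and 0.21.

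Treatments were then compared with each other through their ratios. No gene passed in any of the 4 comparisons (0% of all genes each), and no member did. At an unadjusted p under 0.05 there were 7 members for CAT-SKL against ADDL (18.9%, against 8.7% of all genes), 3 for CAT-SKL+ADDL against ADDL (8.11%, against 3.9%), 2 for ADDL+CAT-SKL against ADDL (5.41%, against 8.39%) and 1 for CAT-SKL+ADDL against ADDL+CAT-SKL (2.70%, against 5.64%). The smallest adjusted p of a member was 0.541. The ADDL arrays enter 3 of these comparisons and the vehicle label all 4, so the counts are not independent of each other.

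Lamp2 had the largest difference. It was higher by 0.48 ± 0.14 (SE, 95% interval 0.16 to 0.81) in CAT-SKL+ADDL than in ADDL, by 0.41 (0.08 to 0.73) in CAT-SKL+ADDL than in ADDL+CAT-SKL, and by 0.33 (0.07 to 0.59) in CAT-SKL than in ADDL. The adjusted p was 1.00, 0.857 and 0.541. Cd63 was higher by 0.28 (0.07 to 0.50) in ADDL+CAT-SKL than in ADDL, with adjusted p = 0.573. Ulk1 differed by -0.25 (-0.45 to -0.05) between CAT-SKL and ADDL, with adjusted p = 0.541, and by -0.09 with median centring (adjusted p = 0.837). Single treatments and sequential treatments lay in different rows of the slide and differed in total time, so a difference between a single and a sequential treatment cannot be told apart from slide row or total exposure time.

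Counts of members whose arrays did not overlap between treatments were mostly near those of all genes. The CAT-SKL+ADDL arrays differed by no more than spot noise, so they do not count as separate samples in these comparisons. For CAT-SKL+ADDL against ADDL, 12 members were higher (32.4%, against 22.4% of all genes) and 12 lower (32.4%, against 24.9%). For ADDL+CAT-SKL against ADDL, 9 were higher (24.3%, against 19.1%) and 9 lower (24.3%, against 20.6%). For CAT-SKL against ADDL, 9 were higher (24.3%, against 18.3%) and 10 lower (27.0%, against 22%). For CAT-SKL+ADDL against ADDL+CAT-SKL, 9 were higher (24.3%, against 24.5%) and 13 lower (35.1%, against 24.8%). The 12 members lower in CAT-SKL+ADDL than in ADDL were 7 autophagy factors (Ulk1, Wipi1, Map1lc3b, Gabarap, Gabarapl1, Gabarapl2 and Sqstm1) and 5 hydrolases (Ctsb, Ctsd, Gaa, Glb1 and Man2b1). This depended on loess: with median centring only Ulk1 and Wipi1 kept a lower mean in CAT-SKL+ADDL, and the others had a higher one. Gabarapl2 was then at 0.15 against -0.09 in ADDL, and Ctsd at 0.04 against -0.17. The 12 higher were 3 autophagy factors (Atg3, Atg5 and Atg12), 6 hydrolases (Ctsa, Ctsh, Ctsl, Hexa, Gla and Neu1) and 3 membrane proteins (Lamp2, Scarb2 and Cd63). Their means stayed higher with median centring, but the other probe of Atg5 overlapped between these treatments. The splits by role of the lower and of the higher members were not compared with other genes. The 9 lower in ADDL+CAT-SKL than in ADDL included Ctss and Ctsz, which were not well above background in the former.

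Of 134 further genes listed for these pathways, 117 were measured. Tecpr1 was the 1 of these 117 that passed in any treatment. It passed after CAT-SKL, where 588 of all genes did (2.62%), so these lists did not pass more often than all genes. Tecpr1, a tethering protein that helps autophagosomes fuse with lysosomes, was at -0.36 and -0.45 after CAT-SKL, 0.08 and -0.14 after ADDL, -0.45 and -0.30 after CAT-SKL+ADDL, and -0.23 and -0.13 after ADDL+CAT-SKL. It fell after CAT-SKL, at -0.41 ± 0.07 (SE, n = 2, adjusted p = 0.0367). The call was lost without CAT-SKL 1 (adjusted p = 0.381), without CAT-SKL 2 (0.115), when an array of ADDL (0.0511) or of ADDL+CAT-SKL (0.0546) was left out, and with median centring (-0.27, 0.0715). Of the 117 genes, 64 lay above 0 after CAT-SKL, 58 after ADDL, 62 after CAT-SKL+ADDL and 71 after ADDL+CAT-SKL, with medians of 0.01, -0.0003, 0.004 and 0.03.

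Autophagy receptors that bind mitochondria gave the smallest adjusted p among these lists after ADDL, though they did not pass. Bnip3 lay above 0 on every array, at 0.25 and 0.14 after CAT-SKL and 0.34 and 0.45 after ADDL. It was at 0.25 and 0.30 after CAT-SKL+ADDL and at 0.24 and 0.31 after ADDL+CAT-SKL. Bnip3l was also above 0 throughout, at 0.28 and 0.14, 0.30 and 0.33, 0.24 and 0.21, and 0.06 and 0.08 in that order. The fitted values after ADDL were 0.39 ± 0.06 (SE, adjusted p = 0.0714) for Bnip3 and 0.32 ± 0.06 (0.0718) for Bnip3l. Both passed without either CAT-SKL array (0.0422 and 0.0473), and Bnip3 with median centring (0.37, adjusted p = 0.0355), while without ADDL 1 the adjusted p of both was 0.395. Of 17 measured subunits of the V-ATPase, the proton pump that acidifies the lysosome, 12 were below 0 after ADDL. The arrays differed, with 4 of the 17 above 0 on ADDL 1 (median -0.10) and 8 on ADDL 2 (median -0.01). Of all 22459 genes, 11377 and 11191 were above 0 on these arrays. The median of the 17 was -0.03 (-0.05 with median centring and -0.006 in the deposited log ratios). The subunit Atp6v0a1 was at -0.30 ± 0.06 (SE, adjusted p = 0.0723) after ADDL. It lay below 0 on every array, at -0.26 and -0.16 after CAT-SKL and -0.34 and -0.26 after ADDL. It was at -0.33 and -0.25 after CAT-SKL+ADDL and at -0.04 and -0.08 after ADDL+CAT-SKL. For Bnip3, Bnip3l and Atp6v0a1, dye bias therefore cannot be told apart from a treatment effect shared by all arrays. Of 24 further hydrolases, 18 were above 0 after CAT-SKL (median 0.07), with 19 under median centring and 14 in the deposited log ratios. Of 21 genes of MTORC1 and TFEB regulation, 14 were below 0 after CAT-SKL (median -0.03), and median centring turned this to 16 above 0 (median 0.11). Of these 4 lists, none held a gene that passed.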

How the data were processed

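Intensities were read from the 8 scanner files; they are median signals of each spot as deposited by the authors, and Agilent Feature Extraction 11.5 is named in the submitters' processing notes. The deposited log10 ratios, dye-normalised by that software per the file headers, served as an alternative. The labels assign Cy5 to treated and Cy3 to vehicle RNA on every array, and the authors' series table of log10 ratios differed from the scanner ratios by at most 0.0050. From the deposited intensities, log2 ratios were computed with limma 3.58.1 in R 4.3.3: normexp background correction (offset 50), loess within each array, control and outlier spots left out, and spots of a probe averaged. Probes were kept if at least 2 arrays had them well above background in Cy5 or Cy3, and the brightest kept probe stood for a gene. Of 30367 probes, 17998 had a symbol by accession, 25363 passed the filter, and 12944 genes with a symbol were among the 22459 tested.

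All groups entered 1 lmFit and eBayes model of 7 samples, with the ratio against 0 as the test of a treatment and contrasts between groups otherwise. Calls used a Benjamini-Hochberg adjusted p under 0.05 over all genes. The number of arrays limits the precision. Alternatives were 8 separate samples, a replicate block, median centring, no background correction, the deposited ratios, other filters and probe rules, and each array left out. The script was tested on simulated data. Named in full were members that passed, the 3 highest and 3 lowest per treatment with both arrays on 1 side of 0, Tfeb, Sqstm1 and the ATG8 family; of the other lists, genes that passed or the 2 smallest p per list and treatment could be named. The members and lists were chosen with earlier results of these data known. The order of agents was read from the sample names.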

Additional observations from a re-analysis of the deposited data

Results flagged for a closer look

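Several members had both arrays of 1 treatment above 0 and both arrays of another below 0, in pairs of treatments that were not compared by a test. The difference was therefore not tested in any of them, and both treatments of a pair share the vehicle label. Between CAT-SKL and CAT-SKL+ADDL, Becn1 differed by 0.072 (0.05 against -0.02) and Map1lc3b by 0.10 (0.06 against -0.04). These are 5.41% of members, against 5.69% of all genes whose probe was well above background in a channel of both groups. All shares here refer to such genes. With median centring both genes lay above 0 in both treatments, Becn1 at 0.18 and 0.15 and Map1lc3b at 0.23 and 0.19.

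Between CAT-SKL and ADDL+CAT-SKL, 6 of the 35 members with such a probe (17.1%, against 10.8% of all genes) lay on opposite sides. Becn1 differed by 0.092 (0.05 against -0.04) and Atg3 by 0.17 (0.11 against -0.05), with CAT-SKL the higher. Wipi1 differed by -0.069 (-0.03 against 0.04), Map1lc3a by -0.10 (-0.07 against 0.03), Gabarapl1 by -0.18 (-0.13 against 0.05) and Gabarapl2 by -0.20 (-0.17 against 0.03), with ADDL+CAT-SKL the higher. With median centring, the means of Becn1, Atg3, Map1lc3a, Gabarapl1 and Gabarapl2 lay above 0 in both treatments. Wipi1 was then at -0.08 after CAT-SKL and 0.0007 after ADDL+CAT-SKL. The other probes of Gabarapl1 and Gabarapl2 did not all share the sign of the probe used in ADDL+CAT-SKL. In the pairs of treatments that were compared by a test, such cases were 6 of 37 members between CAT-SKL and ADDL (16.2%, against 10.1% of all genes), 7 of 37 between ADDL and CAT-SKL+ADDL (18.9%, against 11.7%), 3 of 35 between ADDL and ADDL+CAT-SKL (8.57%, against 11%) and 9 of 35 between the sequential treatments (25.7%, against 14.1%). With limma and Benjamini-Hochberg adjustment, 0 of these differences passed.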

How the results depend on the processing

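The counts of members that passed after CAT-SKL (1 in the report) were 4 with the CAT-SKL+ADDL arrays as separate samples (Gabarap, Ctsd, Ctsh, Mcoln1), 3 with median centring (Ctsh, Lamp1, Lamp2), 3 with probes above background in both channels on every array (Ctsd, Ctsh, Mcoln1; 34 members left) and 2 with probes above background in most of their spots, an alternative chosen after seeing the data (Ctsd, Mcoln1). They were 0 without background correction (Ctsd adjusted p = 0.0635), with the deposited log ratios (0.222) and with no filter on dim probes (0.0508). Over all genes the CAT-SKL count of 588 became 1820, 1819, 846, 823, 412, 0 and 275 in the same order. With separate samples 1 member passed after ADDL and 1 after ADDL+CAT-SKL (Ulk1 in both), and 5 after CAT-SKL+ADDL (Gabarap, Ctsd, Ctsh, Tpp1, Lamp2); with median centring 1 passed after ADDL (Ctsh). Leaving out 1 array at a time gave 0 to 2 members after CAT-SKL and 2 to 588 of all genes, with 2 in the absence of CAT-SKL 1, 53 when an array of ADDL and 226 when an array of ADDL+CAT-SKL was left out. The comparisons between treatments gave 0 members under each alternative run.

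Same-numbered replicates did not deviate together (r of deviations between -0.20 and 0.08 over 6 pairs of treatments), so the numbers were not taken to pair samples. With the replicate block 0 members and 6 of all genes passed after CAT-SKL, with Ctsd at adjusted p = 0.0727 and Tecpr1 at 0.0686. Tecpr1 was also lost in the deposited log ratios (-0.36, 0.189).

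The hydrolase minus autophagy median moved with median centring to -0.091 (CAT-SKL), 0.063 (ADDL), -0.093 (CAT-SKL+ADDL) and -0.119 (ADDL+CAT-SKL). It was 0.099 without background correction (CAT-SKL+ADDL), 0.126 (ADDL) and -0.0049 (ADDL+CAT-SKL) in the deposited ratios, 0.022, 0.037 and 0.089 for the first 3 treatments under the stricter filter, and 0.089 (ADDL) and 0.079 (CAT-SKL+ADDL) with the mean of a gene's probes. Without Ctss and Ctsz, an alternative chosen after seeing the data, it was -0.042 in ADDL+CAT-SKL.

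Of 58 single-gene values followed, these turned sign. With median centring after CAT-SKL they were Tfeb -0.052, Map1lc3a 0.18, Gabarapl1 0.15 and Gabarapl2 0.026, and after ADDL Gabarapl1 0.026. After CAT-SKL+ADDL they were Ctsd 0.038, Tfeb -0.061, Sqstm1 0.19, Map1lc3a 0.25, Map1lc3b 0.19, Gabarapl1 0.20 and Gabarapl2 0.15. Without background correction Tfeb was 0.0034 after ADDL+CAT-SKL. In the deposited ratios Tfeb was -0.027 after CAT-SKL, Map1lc3b -0.028 after ADDL and -0.053 after ADDL+CAT-SKL, and Gabarapl1 -0.049 after ADDL+CAT-SKL. With the mean of a gene's probes Gabarapl1 was -0.0098 and Gabarapl2 -0.0072 after ADDL+CAT-SKL. With 1 array left out Map1lc3a ranged from -0.054 to 0.086 after ADDL and Sqstm1 from -0.018 to 0.073 after CAT-SKL. Tfeb ranged from -0.045 to 0.058 after CAT-SKL, -0.0027 to 0.145 after ADDL, -0.035 to 0.064 after CAT-SKL+ADDL and -0.087 to 0.00077 after ADDL+CAT-SKL. The cause of these shifts was not tested.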
